A study of Mus musculus with 2 samples.

Results

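The R-spondins, their LGR receptors and the WNT co-receptors LRP5 and LRP6 were followed in ureters of mouse embryos in which the secretion of WNT proteins was blocked. The set holds 9 genes, *Rspo1* to *Rspo4*, *Lgr4*, *Lgr5*, *Lgr6*, *Lrp5* and *Lrp6*, and was chosen by name: every array probe annotated with one of these symbols was taken. This gave 12 of the 39429 probes, under 9 of the 29924 gene names on the array. Wild-type ureters of the NMRI strain were dissected at E11.5, sex not determined, and pools of them were kept for 18 h in serum-free medium. The medium held either 10 µM IWP-2, which inhibits the acyltransferase PORCN that WNT proteins need for their release, or its solvent DMSO alone (2 parts in 1000). RNA of 1 treated and 1 control pool was hybridised together on each of 2 two-colour arrays. The IWP-2 RNA carried AlexaFluor647 on replicate 1 and AlexaFluor555 on replicate 2, and the control RNA carried the other dye.

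WNT proteins bind a Frizzled receptor together with LRP5 or LRP6, and the phosphorylated tail of the co-receptor then recruits AXIN, so that β-catenin is spared from degradation and activates target genes with TCF/LEF factors. The transmembrane ubiquitin ligases RNF43 and ZNRF3 remove Frizzled and LRP6 from the cell surface. R-spondins are secreted proteins that bind these ligases together with LGR4, LGR5 or LGR6, clear the ligases from the membrane and thereby raise the response of a cell to WNT. In the early ureter, the epithelium sends WNT signals to the surrounding mesenchyme, the source of its smooth muscle.

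Each probe is 60 bases long and was printed 4 times per array. The first 30 bases of those probes whose values are described most closely are given here, 5′ to 3′ and without capitals, as the array files hold them. Both probes are shown for *Lgr5*, where the second was at background, and for *Lrp6*, where both were kept.
Rspo1, A_51_P142421: ccgtggtacacgtcacggatgacctgactt
Rspo2, A_51_P222337: ccttaggtcagtttgtccttagattatgaa
Rspo3, A_55_P2163659: ggatactactttctaacaaggtgtatctag
Lgr4, A_55_P2408848: gctctgacatttccaaatttgttgaagtta
Lgr5, A_55_P2126192: catgtaaatacgtagtgcttgtaaatagat
Lgr5, A_52_P30169: acctctagtgcttatatagaaacttgtgtg
Lrp6, A_55_P2118391: caaaggaaacaggaaaagaaaggcatcact
Lrp6, A_55_P2041360: atcgagcgcacgtcacgggagcctcctcaa

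In the build of the array files (mm9), the *Rspo1* probe lies at chr4:124686270-124686329 on the plus strand and the *Rspo2* probe at chr15:42852727-42852786 on the minus strand. The *Rspo3* probe lies at chr10:29172930-29172989 on the minus strand, and the *Lgr4* probe at chr2:109853567-109853626 on the plus strand. The *Lgr5* probes lie on the minus strand at chr10:114887403-114887462 and chr10:114900686-114900745, and the *Lrp6* probes on the minus strand at chr6:134400440-134400499 and chr6:134404723-134404782. Of the other members, *Rspo4* is covered at chr2:151700345-151700404, *Lgr6* at chr1:136880538-136880597 and chr1:136883782-136883841, and *Lrp5* at chr19:3584971-3585030. The share of G and C in the 12 probes ran from 35% to 55%, with 41.7% in the *Rspo1* probe and 38.3% in the *Rspo2* probe. Whether a probe lies in coding or untranslated sequence was not analysed here.

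The median spot intensity was between 307 and 680 in the 4 channels, over local backgrounds between 27 and 84, and AlexaFluor647 gave the brighter channel on either array. The share of spots well above background was 68.6% to 70.7%, and 0 spots were saturated. Replicates 1 and 2 had a Pearson correlation of 0.465 over the log2 changes of the 20119 genes tested, which are not independent of each other. Ureteric mesenchyme and epithelium were both present by their markers, with all 10 genes of either list well above background and tested.

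Of the 12 probes, 9 were well above background and kept, and 8 of the 9 genes were tested. *Rspo4* was the exception. Its probe had processed intensities (the software's own background-corrected, dye-normalized values, in arbitrary units) of 2.72 with IWP-2 and 2.05 in the control on replicate 1, and of 1.79 and 2.67 on replicate 2. No spot of this probe was well above background in either channel of either array. The same held for the second probe of *Lgr5*, with intensities between 1.08 and 1.55, and for the second probe of *Lgr6*, with intensities between 2.27 and 3.34. For these 3 probes no change is given.

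Only 1 of the 8 tested members changed at a false discovery rate (FDR) of 0.05 in limma. This was *Rspo2*, which rose 2.16-fold with IWP-2. Among all 20119 genes, 1.76% passed this threshold, 0.611% as higher and 1.15% as lower. At an unadjusted p under 0.05, 4 of the 8 members passed, with *Rspo2* and *Rspo3* higher and *Lgr4* and *Lgr5* lower, against 13.4% of all genes. The change had the same direction on both arrays for 5 of the 8 members, against 56.0% of all genes. The median log2 change of the 8 members was -0.05, and that of all genes was 0.00. In a filter modelled on the study's intensity and fold change thresholds, which as applied here requires of each array a processed intensity of 100 or more in the brighter channel and a change of 2-fold or more, with the same sign on both, *Rspo2* was again the only member that passed. Of the 14549 genes bright enough for this filter, 61 passed (0.419%), 11 as higher and 50 as lower.

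**Figure D1:**
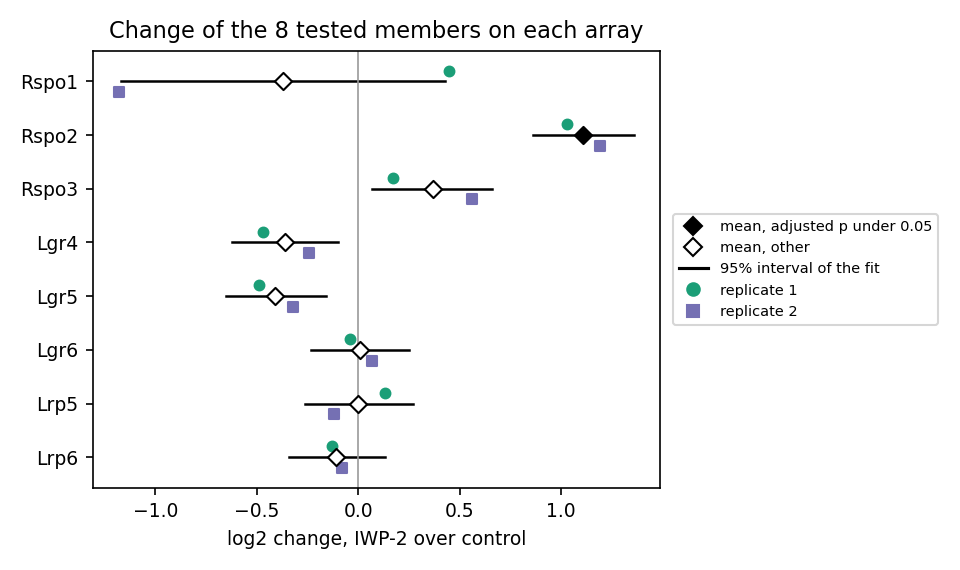
Log2 change of IWP-2 over control (x axis) for the 8 tested members (y axis). Diamonds are means of the 2 arrays, filled where the adjusted p in limma was under 0.05, lines are the 95% intervals of the fit, and circles and squares are the single arrays; only *Rspo2*, at 1.11, has a filled diamond, and the widest interval is that of *Rspo1*, from -1.17 to 0.43.

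Among the ligands, *Rspo2* was the member with the largest mean change. Its processed intensity was 304 with IWP-2 and 146 in the control on replicate 1. On replicate 2 it was 401 with IWP-2 and 167 in the control. Both IWP-2 values lay above both control values, and IWP-2 was higher whichever dye it carried. The single spots gave log2 ratios from 0.99 to 1.08 on replicate 1 and from 1.15 to 1.23 on replicate 2, so that the spread within an array was smaller than the step between the arrays. The mean log2 change was 1.11 ± 0.11 (SD, n = 2 arrays; SE of the fit 0.10; adjusted p 0.00740 in limma; 95% interval 0.86 to 1.36). This increase ranked 19 among the 20119 genes.

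The size of the *Rspo2* change was between 1.09 and 1.17 under all 11 alternative treatments of the signals, filters and probes, but its call was not stable. The adjusted p in limma was 0.0867 with each array centred on its median in place of loess, 0.139 with the rounded fold changes of the series table, and 0.197 in a model of separate channels with a term for the dye, in which 0 of the 20119 genes passed.

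Markers of endothelium, of neural crest and neurons, and of blood shifted in the same direction as *Rspo2*. For the remaining lists, the median log2 change was 0.07 in ureteric epithelium, 0.13 in mesothelium and -0.20 in kidney mesenchyme. Over all 20119 genes, 5727 were higher on both arrays, and 0.611% passed FDR 0.05 as higher. All 8 endothelial markers tested were higher on both arrays, with a median log2 change of 0.46, and 2 of them passed FDR 0.05. Their summed processed intensity was 17827 and 16272 with IWP-2 and 12952 and 10142 in the control. Of the 8 markers of neural crest and neurons, 7 were higher on both arrays (median 0.36, 0 passed), with sums of 42889 and 39642 against 29910 and 30897. Of the 8 blood markers, 7 were higher on both arrays (median 0.44, 0 passed), with sums of 115679 and 84538 against 99409 and 53366. By contrast, 6 of the 10 markers of ureteric mesenchyme fell at FDR 0.05 (median -0.75), against 1.15% of all genes. The sums of this list were 61814 and 53136 with IWP-2 against 83481 and 74334 in the control. Among those that fell, *Foxf1* (-1.57), *Ptch1* (-1.03) and *Bmp4* (-0.73) are genes that the study proposes as likely direct WNT targets. The 4 that did not pass were *Tbx3* (-0.47), *Gata6* (-0.41), *Tbx2* (-0.20) and *Aldh1a2* (0.05). Of these, *Tbx2* and *Tbx3* are WNT targets in this mesenchyme by earlier work that the study cites. No marker of the endothelial, neural, blood and ureteric mesenchyme lists was at background. A sum over a list follows its brightest probes: *Hbb-y* alone gave 53325 of the blood sum of 115679 with IWP-2 on replicate 1. In whole explants, fewer cells of a type and less RNA per cell cannot be told apart, and the part of these shifts in the *Rspo2* result was not tested.

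*Rspo3*, another R-spondin ligand, had higher values with IWP-2, within a wider spread. The processed intensity was 3421 with IWP-2 and 3024 in the control on replicate 1, and 4622 with IWP-2 and 3174 in the control on replicate 2. IWP-2 was higher on both arrays, but the difference on replicate 1 was small, with single spots between 0.03 and 0.24 on the log2 scale. On average, the log2 change was 0.37 ± 0.28 (SD, n = 2 arrays) and did not pass (p 0.0228, adjusted p 0.258 in limma). The interval of the fit, from 0.07 to 0.66, lay below that of *Rspo2*. The difference between the changes of these genes was not tested.

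*Rspo1* gave opposite results on the arrays. Its processed intensity was 620 with IWP-2 and 453 in the control on replicate 1, and 332 with IWP-2 and 780 in the control on replicate 2. The log2 change was 0.45 on replicate 1 and -1.18 on replicate 2, and their mean of -0.37 ± 1.15 (SD, n = 2 arrays) did not pass (p 0.310, adjusted p 0.814 in limma). The spots of the probe were close together, from 0.43 to 0.46 over 3 spots on replicate 1 and from -1.28 to -1.13 over 4 spots on replicate 2. The turn between the arrays was thus far larger than the spread within either of them.

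On both arrays, the channel with AlexaFluor647 was the brighter one for *Rspo1*, by 0.45 and 1.18 on the log2 scale after normalization. Of the 20119 genes, 24 (0.119%) differed more between the arrays than *Rspo1*. Each array had its own pools, so a difference between dyes and a difference between pools cannot be told apart. Among the 8 markers of kidney mesenchyme, 3 were higher on replicate 1 and lower on replicate 2, as *Rspo1* was, and 0 turned the other way, against 18.7% and 25.2% of all genes. The other 5 kept 1 direction, 2 higher (*Cited1* and *Meox1*) and 3 lower (*Wt1*, *Osr1* and *Gdnf*) on both arrays. With 8 genes, these counts of directions show nothing particular to the list. Between the arrays, the SD was 1.48 for *Sall1* (0.29 and -1.81), 1.00 for *Six2* (1.03 and -0.38) and 0.81 for *Wt1* (-0.14 and -1.29). For the rest of the list it was 0.34 or less, and the median over all genes was 0.11. The median log2 change of this list was 0.19 on replicate 1 and -0.37 on replicate 2. Its summed processed intensity was 17487 with IWP-2 and 15326 in the control on replicate 1, and 14383 and 18461 on replicate 2. All 8 of these markers were well above background. The part of these cells in the *Rspo1* values was not tested.

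**Figure D2:**
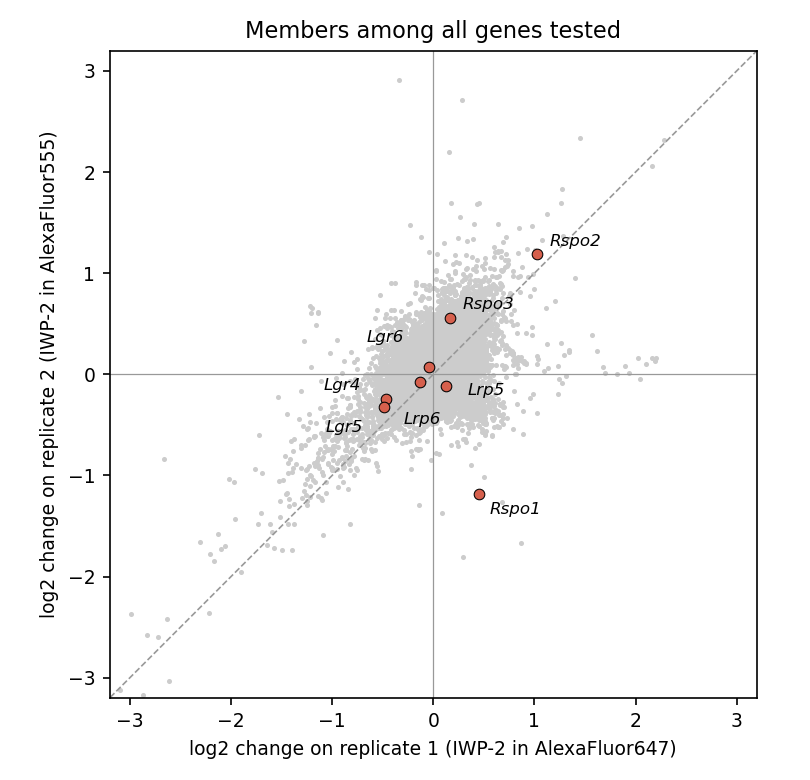
Log2 change of IWP-2 over control on replicate 1 (x axis, IWP-2 in AlexaFluor647) and on replicate 2 (y axis, IWP-2 in AlexaFluor555) for the 20119 genes tested (grey, 2 of them outside the axes) and the 8 members (red, named). *Rspo2* lies close to the dashed line of equal change at 1.03 and 1.19, whereas *Rspo1*, at 0.45 and -1.18, lies where the arrays have opposite signs.

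Of the receptors that R-spondins bind, *Lgr4* and *Lgr5* had lower values with IWP-2 on both arrays, and neither passed FDR 0.05. *Lgr4* encodes the most widely expressed receptor of the family. Its processed intensity was 523 with IWP-2 and 749 in the control on replicate 1, and 695 with IWP-2 and 821 in the control on replicate 2. Both IWP-2 values lay below both control values. The mean log2 change was -0.36 ± 0.17 (SD, n = 2 arrays; p 0.0146, adjusted p 0.210 in limma; 95% interval -0.62 to -0.10).

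*Lgr5* is best known as a WNT target and a marker of stem cells in the intestine. Its bright probe had a processed intensity of 210 with IWP-2 and 296 in the control on replicate 1, and of 203 with IWP-2 and 260 in the control on replicate 2. Here too, both IWP-2 values lay below both control values. This gave a mean log2 change of -0.41 ± 0.12 (SD, n = 2 arrays; p 0.00656, adjusted p 0.137 in limma; 95% interval -0.65 to -0.16). The second *Lgr5* probe, whose sequence is given above, was at background in every channel, so the change rests on 1 probe.

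The intervals of *Lgr4* and *Lgr5* leave out 0 when each gene is taken alone, but the smallest mean change that passed FDR 0.05 among all genes was 0.57 on the log2 scale. Mean changes of the size of *Lgr4*, *Lgr5* and *Rspo3* thus lay under what these 2 arrays called. The markers of ureteric epithelium had a median log2 change of 0.07, with 0 of 10 past FDR 0.05 in limma. At an unadjusted p under 0.05, 5 of them passed, 3 higher and 2 lower, against 13.4% of all genes.

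*Lgr6*, the remaining receptor, was dim. Its kept probe had a processed intensity of 6.81 with IWP-2 and 7.31 in the control on replicate 1, and of 11.4 and 10.2 on replicate 2. On replicate 1, 3 of the 4 spots were well above background in either channel, and on replicate 2 all 4 were. The arrays gave a mean log2 change of 0.01 ± 0.08 (SD, n = 2 arrays; adjusted p 0.992 in limma), with a 95% interval from -0.23 to 0.25.

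Neither co-receptor gene passed FDR 0.05 in limma. The processed intensity of *Lrp5* was 694 with IWP-2 and 598 in the control on replicate 1, and 418 with IWP-2 and 465 in the control on replicate 2. The order of the channels turned between the arrays, and the spots of replicate 1 were spread from -0.11 to 0.38 on the log2 scale. *Lrp5* had a mean log2 change of 0.00 ± 0.17 (SD, n = 2 arrays; adjusted p 0.997 in limma; 95% interval -0.26 to 0.27).

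*Lrp6* was read by a pair of probes. The brighter one had a processed intensity of 1175 with IWP-2 and 1253 in the control on replicate 1, and of 1286 and 1389 on replicate 2. The dimmer one had 325 with IWP-2 and 349 in the control on replicate 1, and 327 and 422 on replicate 2. IWP-2 was the lower channel in all of these comparisons, by small amounts. The mean log2 change of the brighter probe was -0.11 ± 0.03 (SD, n = 2 arrays; adjusted p 0.813 in limma; 95% interval -0.34 to 0.13). The dimmer probe gave -0.23 ± 0.15 (SD, n = 2 arrays) when each kept probe was tested on its own, with an adjusted p of 0.479 over 26947 probes in limma. With the rounded fold changes of the series table, *Lrp6* passed FDR 0.05 at a log2 change of -0.14 (adjusted p 0.0421 in limma).

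As a check of the treatment, target genes of the pathway were read in the same fit. Their list was chosen with earlier results of these data known, so the check is not independent. Of 13 listed WNT targets, 7 fell and 0 rose at FDR 0.05, and the list had a median log2 change of -0.84. Among all genes, 1.15% passed as lower. Apart from *Axin2*, those that did not pass were *Myc* (-0.25), *Znrf3* (-0.25), *Notum* (-0.10), *Rnf43* (0.00) and *Ccnd1* (0.04). *Nkd1*, a feedback inhibitor that acts on Dishevelled, fell by 1.31 (adjusted p 0.00580 in limma), and *Lef1*, which encodes a partner of β-catenin on DNA, fell by 0.89 (adjusted p 0.0137 in limma). *Axin2*, another feedback inhibitor, had a log2 change of -1.38 on replicate 1 and -0.64 on replicate 2 and just missed the threshold (mean -1.01, adjusted p 0.0502 in limma). The other genes that fell were *Sp5* (-1.12), *Tcf7* (-0.89), *Wif1* (-0.84), *Tnfrsf19* (-0.73) and *Apcdd1* (-1.27). *Sp5* and *Tcf7* encode transcription factors, WIF1 is a secreted protein that binds WNT, and APCDD1 is a membrane inhibitor of WNT signaling.

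Neither of the genes for the ligases on which R-spondins act passed FDR 0.05. *Rnf43* had a log2 change of -0.04 on replicate 1 and 0.05 on replicate 2, with a mean of 0.00 (adjusted p 0.997 in limma). *Znrf3* had -0.27 on replicate 1 and -0.23 on replicate 2, with a mean of -0.25, and did not pass (p 0.0396, adjusted p 0.336 in limma). Both are among the WNT targets counted above.

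The DKK ligands, their KREMEN receptors and the LRP chaperone, listed as partners of LRP5 and LRP6, did not pass either. *Dkk1*, which encodes a secreted ligand that blocks LRP6, had a mean log2 change of -0.33 (-0.43 and -0.24; adjusted p 0.225 in limma). Its relative *Dkk2* had -0.19 on replicate 1 and 0.54 on replicate 2, with a mean of 0.18 (adjusted p 0.840 in limma). For the DKK receptors, *Kremen1* had a mean of 0.08 (adjusted p 0.893) and *Kremen2* of 0.36 (0.27 and 0.45; adjusted p 0.183 in limma). *Mesd*, listed on the array as *Mesdc2*, encodes the chaperone that LRP5 and LRP6 need for folding, and had a mean of 0.00 (-0.06 and 0.06).

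In all, 15 of 17 surface regulators of the receptor complex were tested, *Dkk4* and *Sost* being the exceptions. Of these, 1 fell (*Apcdd1*, adjusted p 0.00414 in limma) and 0 rose, and the list had a median log2 change of -0.10. At an unadjusted p under 0.05, 8 of the 15 passed, 6 lower and 2 higher, against 13.4% of all genes. Of the 16 genes for proteins that assemble on the tail of LRP5 and LRP6 or process β-catenin, which include the Dishevelled, casein kinase and GSK3 genes and *Ctnnb1*, 0 passed FDR 0.05 in limma and 2 passed at an unadjusted p under 0.05. With a robust prior that follows intensity, 1 of them passed, which was *Axin2*. The list had a median log2 change of -0.04.

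**Figure D3:**
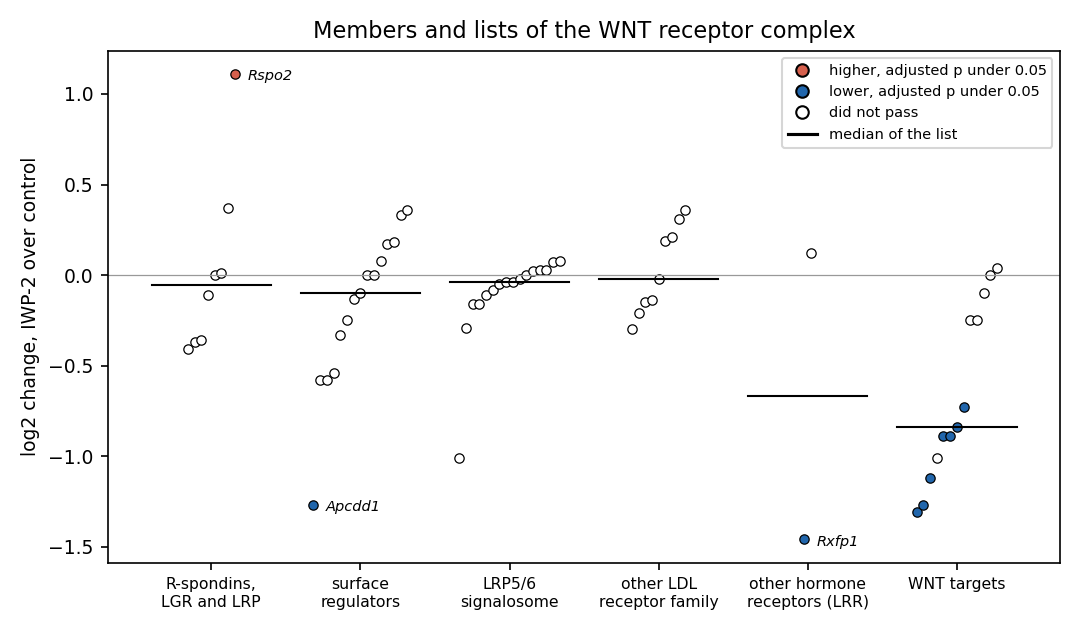
Mean log2 change of IWP-2 over control (y axis) for each tested gene of the member set and of 5 lists, with the median of each list as a line. Filled points passed FDR 0.05 in limma, red as higher and blue as lower; of the 8 members only *Rspo2* is filled, against 7 of the 13 WNT targets and 0 of the 16 signalosome genes.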

How the data were processed

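Members and gene lists were chosen with earlier results of these data known. Per the file headers, the scanner files give spot and local background intensity in both channels, not normalized, and a processed intensity that Feature Extraction corrected for background and normalized between dyes (version 12.2.0.7 in the headers; the labels name 10.7.3.1). Other deposited columns flag outlier and saturated spots and those well above background. The deposited series table holds a score, the signed fold change rounded to 1 decimal; how it was normalized is not given in the sources used here.

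Analyses used R 4.3.3 with limma 3.58.1 and the package data.table, version 1.17.8, and matplotlib 3.10.9 for figures. Mean intensities were corrected by normexp (offset 50) and normalized by loess within each array, with control spots at weight 0. Outlier spots were dropped and the 4 spots of a probe averaged. A probe entered if, for IWP-2 on both arrays or for the control on both arrays, the share of its spots well above background exceeded 0.5, and the brightest kept probe stood for a gene. Log2 ratios of IWP-2 over control, with the sign of replicate 2 turned for the dye swap, were fitted by lmFit and eBayes over all 20119 genes, two-sided, with Benjamini-Hochberg adjustment. Each gene had 1 residual degree of freedom, and 6.52 in all with the shared prior. The p-values rest on the spread of a gene between these arrays and, for the larger part, on the spread shared over all genes. Between the arrays, pool and dye differ together, and nothing states that pools came from separate litters. The number of arrays limits the precision. Both arrays lay on 1 slide and in 1 scan. The study gives thresholds of intensity and fold change for each array; reading the intensity in the brighter channel, and as at least the threshold, was a choice made here. For this filter, processed intensities under 15 were set to 15. The procedure was tested on simulated spots with known changes. Their dye factors were constant and the noise had the same spread for every probe, so dye effects of single genes were not covered.

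Named were all members with every probe, *Rnf43*, *Znrf3*, *Dkk1*, *Dkk2*, *Kremen1*, *Kremen2* and *Mesd*, list genes past FDR 0.05, and *Axin2*, *Lef1* and *Nkd1* as a check of the treatment. Markers are given by list, and some markers and WNT targets are also named. No genes most like a member are named, since 2 arrays give no measure of likeness. Each choice was varied in turn: signals, normalization, background correction, filter, outliers, probe of a gene, deposited table, prior, model and threshold. All 9 members matched a RefSeq gene, and 0 probes carried an older symbol of one.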

Additional observations from a re-analysis of the deposited data

How the results depend on the processing

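The number of members past FDR 0.05 in limma was 1 in the fit described and in all but 2 of the alternatives. It was 0 with median centring and 0 in separate channels with a dye term, where the correlation within spots was taken from the model without that term because no degree of freedom was left to estimate it. The 1 member was *Rspo2*, except with the series table, where it was *Lrp6* (-0.14, now past the threshold). In that table, *Lrp6* and 5040 of 20148 genes in all have the same rounded value on both arrays. *Rspo2* itself had a log2 change of 1.09 with median centring and 1.17 with the series table, and passed in neither. No member reversed its direction in any alternative to signals, filter or probe, apart from *Lrp5*, which was at 0.00 and ranged from -0.03 to 0.06. At FDR 0.1 and 0.01, 1 member passed. Leaving out an array left no test. The filter gave 1 member without replicate 2 and 2 without replicate 1, where the second was *Rspo1*. Over all genes, it passed 162 and 125 in these settings, against 61 with both arrays. With a trend and a robust prior, the surface regulators had 2 genes past FDR 0.05 (*Apcdd1* and *Dkk3*) and the signalosome had 1. Over all genes, 355 passed; 43 with median centring, 119 without a filter on dim probes, 127 and 0 in separate channels without and with a dye term, 553 over every kept probe, and 2361 with the series table. Each log2 ratio pairs the treated and control pool of 1 array, so the fit described is already paired by replicate, and no further block was added. *Rspo4* and the second probes of *Lgr5* and *Lgr6* had only background signal, so nothing is known of their change.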

Other observations

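Other genes of the same protein families were read in the same fit. Of 5 genes for the leucine-rich repeat hormone receptors related to the LGR proteins, *Rxfp1* and *Tshr* were tested, and *Fshr*, *Lhcgr* and *Rxfp2* were not. *Rxfp1*, the receptor of the hormone relaxin, fell by 1.46 on the log2 scale (-1.52 on replicate 1 and -1.41 on replicate 2; adjusted p 0.00252 in limma). Of 10 other genes of the LDL receptor family, 9 were tested and *Lrp1b* was not. In this family 0 genes passed FDR 0.05 in limma or with the robust prior, and 3 passed at an unadjusted p under 0.05, 2 higher and 1 lower. The family's median log2 change was -0.02, with a range from -0.30 to 0.36. Of 6 mesothelial markers, 5 were tested and 0 passed FDR 0.05 in limma, with 1 at an unadjusted p under 0.05 and a median log2 change of 0.13. Of the 8 kidney mesenchyme markers, 1 rose at FDR 0.05, and 4 passed at an unadjusted p under 0.05, 1 higher and 3 lower. Over all genes, 13.4% passed that unadjusted threshold and 1.76% passed FDR 0.05.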
